A study of Mus musculus with 8 samples.

Results

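The effect of oxygen-glucose deprivation (OGD), which imitates ischaemia by keeping cells without oxygen and glucose, was measured in mouse microglia transfected with a Parp14 activation plasmid. The rows were those with a gene name and at least 1 FPKM (a library-scaled number of fragments per kilobase) in at least 2 of the 4 libraries compared, which left 10690 of 54419 gene models. Microglia came from the brains of C57BL/6 mice labelled postnatal day 2 and were grown in medium with serum. They were transfected for 24 h with a CRISPR activation plasmid aimed at Parp14 (libraries OGD_PARP14 and PARP14) or with a control activation plasmid (libraries OGD_Con and Con). OGD lasted 6 h. It is carried in the titles of OGD_PARP14 and OGD_Con alone, although the treatment text gives it for every sample, so groups follow the titles. Each group has 2 libraries, and the design text speaks of 2 independent experiments. Nothing in the labels ties a library to a culture or an animal, so a p-value here measures only how these libraries vary, and that variation may be technical. The share of cells that took up a plasmid is not given in the sources used here.

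Microglia are the resident macrophages of the brain and among the first cells to respond to ischaemia. When oxygen falls, prolyl hydroxylases stop marking hypoxia-inducible factors for degradation, and these factors then raise genes of glucose uptake, glycolysis and mitophagy by binding a short DNA element. Low glucose and misfolded protein also slow translation through the integrated stress response, with Atf4, Atf3 and Ddit3 as known effectors. Interferon acts through Stat2 and Irf9, among other factors, on antiviral genes, and NF-kB drives inflammatory cytokines together with its own inhibitor, Nfkbia. Parp14 is an ADP-ribosyltransferase that is itself induced by interferon.

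The Parp14 level did not follow the plasmid label, and 1 library stood apart. The gene model that holds Parp14 (chromosome 16, 35832874 to 35871544, minus strand) had 55.8 and 54.6 FPKM in the libraries labelled OGD_PARP14 and 12.2 and 11.5 FPKM in those labelled PARP14. It had 12.5 and 53.7 FPKM in OGD_Con and 61.4 and 50.7 FPKM in Con. It is listed under the predicted gene Gm49730 and overlaps the Dtx3l model on the same strand, and the difference between OGD_PARP14 and PARP14 did not pass the test (log2 fold change 2.13, SE 0.60, limma adjusted p = 0.206). The level in the libraries labelled PARP14 was thus below that in Con, so "PARP14" is used below for a label and not for a level. Across the 10690 rows, OGD_PARP14 library 2 had Pearson correlations of 0.877 to 0.898 with the other 7 libraries, whereas every other pair reached at least 0.946. OGD_PARP14 library 1 was closest to the OGD_Con libraries, at 0.987 and 0.982. These correlations are across genes, which are not independent replicates.

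Depth, estimated from the spacing of the lowest values, was 14.7 M and 13.5 M fragments in OGD_PARP14, 13.4 M and 17.0 M in PARP14, and 14.1 M to 15.6 M in the control-plasmid libraries. The 10 most abundant models took 20.5% of all FPKM in OGD_PARP14 library 2 and 13.6% to 15.4% elsewhere. All 10 microglia and macrophage markers were tested, and their summed level was 3370 and 4268 FPKM in OGD_PARP14 against 2931 to 3428 FPKM in the other 6 libraries. The sum is weighted by the most abundant genes. Only 4 of the 10 were above the PARP14 mean in library 1 and 3 in library 2, beside 5056 and 4052 of all 10690 rows. Their median difference in log2(FPKM + 1) was -0.03 in library 1 and -0.33 in library 2, against -0.02 and -0.12 over all rows. Tyrobp, an adaptor of microglial receptors, had 1038 and 1346 FPKM in OGD_PARP14 and 1093 and 976 FPKM in PARP14, and the complement gene C1qa had 1359 and 1174 FPKM against 1438 and 1256 FPKM. Summed markers stayed under 8 FPKM for neurons, astrocytes, endothelial cells and fibroblasts in every library. They were 23.7 and 31.2 FPKM in OGD_PARP14 against 21.5 to 30.0 FPKM elsewhere for the oligodendrocyte lineage, and 45.9 and 34.7 FPKM against 35.5 to 42.4 FPKM for peripheral leukocytes. Markers of macrophages at the brain's borders summed to 90.7 and 295.9 FPKM in OGD_PARP14 against 76.8 to 98.2 FPKM elsewhere, and Folr2 alone made 221 FPKM of the high value in library 2. In such bulk RNA, fewer cells of a type and less RNA per cell cannot be told apart.

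Differences are given as log2(FPKM + 1), OGD_PARP14 minus PARP14, a scale that understates the change of low genes. The test was limma's moderated test over all 8 libraries, with Benjamini-Hochberg adjustment over all 10690 rows and a threshold of 0.05. It called 15 rows higher (0.14%) and 10 lower (0.0935%) in OGD_PARP14 than in PARP14, and 1597 rows had an unadjusted p under 0.05. These counts depended on the libraries used. Without library 2 the same test called 576 rows higher (5.39%) and 601 lower (5.62%), the lone library being assumed to vary like the other groups. Without library 1 it called 1190 higher and 2296 lower. Leaving out either PARP14 library left 0 calls in each direction (781 and 831 rows at an unadjusted p under 0.05), leaving out either OGD_Con library left 1 higher and 0 lower, and leaving out either Con library left 2 higher and 0 lower. The same 4 libraries fitted alone gave 0 calls and 700 rows at an unadjusted p under 0.05.

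What the libraries share was therefore also counted without a test. Both OGD_PARP14 libraries lay above both PARP14 libraries in 1521 rows (14.2%) and below both in 2887 rows (27%). By a margin of at least 1 log2 unit between the nearest libraries, 32 rows were higher (0.299%) and 37 lower (0.346%), and by at least 2 log2 units 6 were higher and 1 lower. The 32 include the Parp14 model and several predicted genes. Taken singly, library 1 was at least 1 log2 unit above the PARP14 mean in 277 rows (2.59%) and below it in 194 (1.81%), while library 2 was above it in 474 (4.43%) and below it in 730 (6.83%). Both sets of differences use the same PARP14 libraries, so they are set side by side here and not correlated. The median difference over all rows was -0.02 in library 1 and -0.12 in library 2.

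Genes with both OGD_PARP14 libraries far above PARP14 included a chemokine receptor, a polo-like kinase and a myelin protein. Cxcr4 (chromosome 1, 128588199 to 128592293, minus strand), the receptor for Cxcl12, had 78.5 and 80.1 FPKM in OGD_PARP14 and 7.90 and 5.55 FPKM in PARP14. It rose by 3.39 log2 units (SE 0.26, limma adjusted p = 0.0237), and the OGD_PARP14 libraries differed by less than the PARP14 libraries on that scale. Plk2 (chromosome 13, 110395046 to 110400844, plus strand), a kinase that p53 induces, had 53.9 and 33.8 FPKM in OGD_PARP14 and 6.12 and 6.45 FPKM in PARP14. It rose by 2.58 (SE 0.21, limma adjusted p = 0.0258). Pmp22, a membrane protein first known from peripheral myelin, had 85.7 and 139 FPKM in OGD_PARP14 and 20.3 and 21.1 FPKM in PARP14 and rose by 2.34 (SE 0.22, limma adjusted p = 0.0363). Called genes were named only where both libraries of 1 group exceeded both of the other, so that separation is no further result. Library 1 was the higher of the OGD_PARP14 pair for Plk2 and library 2 for Pmp22.

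**Figure D1:**
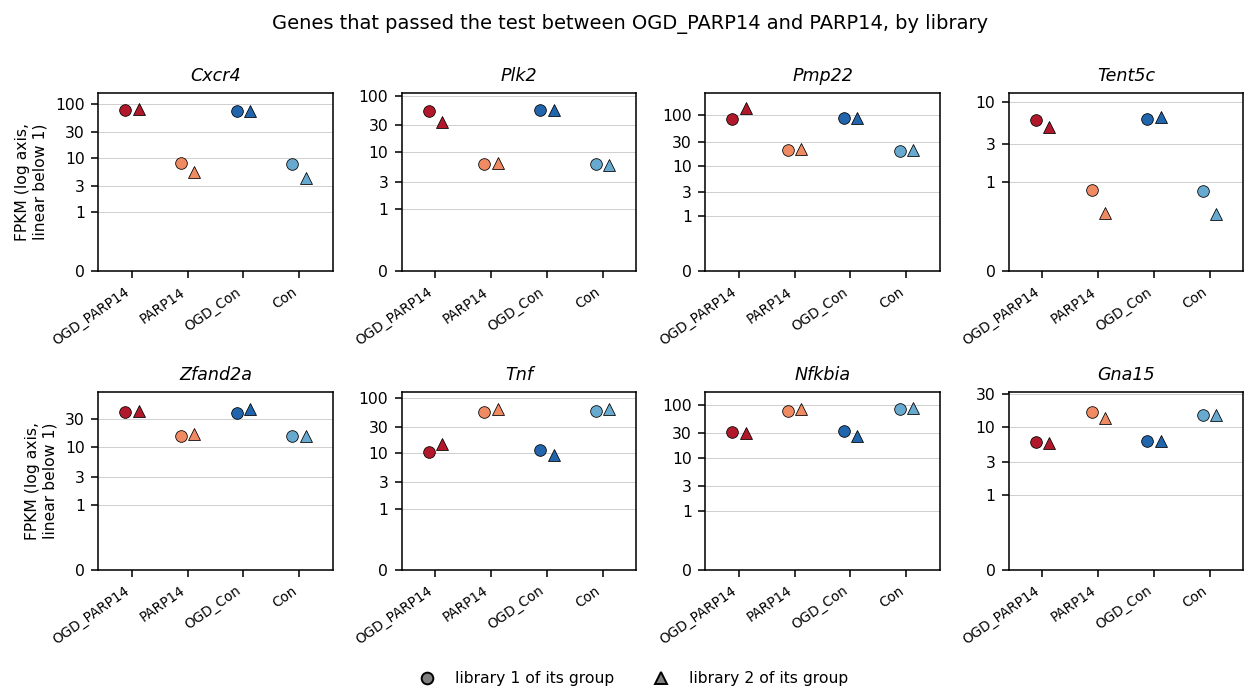
FPKM (log axis, linear below 1) of 8 genes that passed the test, in each library of OGD_PARP14, PARP14, OGD_Con and Con. Circles are library 1 and triangles library 2 of a group. Cxcr4, Plk2, Pmp22, Tent5c and Zfand2a lie above both PARP14 libraries in both OGD_PARP14 libraries, and Tnf, Nfkbia and Gna15 lie below them.

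Rhov, an atypical small GTPase, had 4.84 and 8.30 FPKM in OGD_PARP14 and only 0.35 and 0.36 FPKM in PARP14, and rose by 2.44 (SE 0.23, limma adjusted p = 0.0363). Tent5c, a poly(A) polymerase, had 5.92 and 4.93 FPKM in OGD_PARP14 and 0.917 and 0.656 FPKM in PARP14, and rose by 1.85 (SE 0.14, limma adjusted p = 0.0237). Mxi1, a Max partner that opposes Myc and a known target of hypoxia-inducible factors, had 8.47 and 5.94 FPKM in OGD_PARP14 and 1.57 and 1.55 FPKM in PARP14. It rose by 1.66 (SE 0.17, limma adjusted p = 0.0445). Mxi1 was the 1 called gene of the 25 tested in the hypoxia list, beside 0.14% of all rows called higher. Osm, the cytokine oncostatin M, had 6.96 and 5.60 FPKM in OGD_PARP14 and 1.73 and 1.84 FPKM in PARP14, a rise of 1.38 (SE 0.15, limma adjusted p = 0.0452). The ubiquitin ligase gene Dtx4 had 11.9 and 14.6 FPKM in OGD_PARP14 and 4.18 and 4.31 FPKM in PARP14 and rose by 1.43 (SE 0.14, limma adjusted p = 0.0363). Library 2 was the higher of the OGD_PARP14 pair for Rhov and Dtx4 and the lower one for Tent5c, Mxi1 and Osm.

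Zfand2a, a zinc-finger gene under the control of heat-shock factor, had 39.5 and 40.9 FPKM in OGD_PARP14 and 15.0 and 16.5 FPKM in PARP14, and rose by 1.30 (SE 0.11, limma adjusted p = 0.0300). It was the 1 called member of the 13 tested heat-shock genes, beside 0.14% of all rows called higher, and their median difference was -0.17. Tmem206, which encodes a proton-activated chloride channel, had 30.8 and 28.2 FPKM in OGD_PARP14 and 15.0 and 15.7 FPKM in PARP14, and rose by 0.90 (SE 0.10, limma adjusted p = 0.0462). The last named call is a joined model of Sirt7, Mir6936 and Mafg, which gives 1 value for 3 genes. It had 10.4 and 10.6 FPKM in OGD_PARP14 and 4.80 and 4.40 FPKM in PARP14 (log2 difference 1.03, SE 0.10, limma adjusted p = 0.0363), but 10.4 and 10.0 FPKM in OGD_Con and 12.9 and 12.3 FPKM in Con. The PARP14 libraries are the low ones for this model, and the other 6 libraries lie together.

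Other genes, named for a wide gap between the groups, had both OGD_PARP14 libraries well above PARP14 without passing the test. Rgs1, a regulator of G-protein signalling known to dampen chemokine receptors, had 10.1 and 11.9 FPKM in OGD_PARP14 against 2.36 and 1.75 FPKM in PARP14 (limma adjusted p = 0.0781). Rab7b, a lysosomal trafficking GTPase, had 16.8 and 22.5 FPKM against 4.36 and 4.41 FPKM (limma adjusted p = 0.138). Cd83, an activation marker of antigen-presenting cells, had 85.6 and 42.2 FPKM in OGD_PARP14 against 15.1 and 10.2 FPKM in PARP14 (limma adjusted p = 0.0974). Gdf15, a stress-induced cytokine, had 22.6 and 5.85 FPKM in OGD_PARP14 against 1.40 and 1.10 FPKM in PARP14 (limma adjusted p = 0.138). For Cd83 and Gdf15 library 2 held a smaller part of the difference, whereas for Rgs1 and Rab7b library 2 was the higher one.

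Genes lower in both OGD_PARP14 libraries included inflammatory genes. Tnf, the cytokine tumour necrosis factor, had 10.5 and 14.6 FPKM in OGD_PARP14 and 56.2 and 62.6 FPKM in PARP14, and fell by 2.17 (SE 0.18, limma adjusted p = 0.0276). Nfkbia, which encodes the inhibitor that holds NF-kB in the cytoplasm, had 31.6 and 30.3 FPKM in OGD_PARP14 and 78.6 and 83.9 FPKM in PARP14, and fell by 1.36 (SE 0.13, limma adjusted p = 0.0363). For Nfkbia the OGD_PARP14 libraries were within 2 FPKM of each other. Tnf and Nfkbia were the 2 called members of the 16 tested NF-kB and inflammatory genes, beside 0.0935% of all rows called lower. Of these 16, 7 were lower and 3 higher in both libraries, beside 27% and 14.2% of all rows. The list's median was -0.22, against -0.07 over all rows. By library it was 0.05 in library 1 and -0.55 in library 2, against -0.02 and -0.12 over all rows. In OGD_Con minus Con the median was 0.27, so the list as a whole was lower only in library 2. Ccl4, a chemokine usually raised with Tnf, had 79.3 and 123 FPKM in OGD_PARP14 against 46.1 and 53.3 FPKM in PARP14 (limma adjusted p = 0.159). The other called genes did not belong to this list.

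The promoter of Nfkbia is shown because its gene passed the test and the window holds an NF-kB motif, searched on both strands as GGGA, any base, then TTTCC. The 300 bases run from 250 before to 50 after the transcript start in RefSeq, GRCm38.p6, chr12:55492598-55492897, minus strand, written 5′ to 3′ with the match in capitals, here on the opposite strand.
Nfkbia: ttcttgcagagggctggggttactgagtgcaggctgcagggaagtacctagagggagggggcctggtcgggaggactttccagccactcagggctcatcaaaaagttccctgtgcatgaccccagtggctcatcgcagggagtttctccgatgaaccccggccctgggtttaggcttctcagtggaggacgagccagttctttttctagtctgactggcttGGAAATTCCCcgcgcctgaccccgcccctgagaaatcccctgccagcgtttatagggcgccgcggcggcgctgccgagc
This motif occurs in 5 of the 15 genes of the NF-kB list with a promoter found (33.3%), tested or not. It occurs in 0.411% of the 32851 promoters searched. In lists a gene counts if any of its promoters matches, so the shares of lists and of all promoters differ in measure. A match describes letters and shows no binding.

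Gna15, a G-protein alpha subunit of blood cells, had 5.95 and 5.78 FPKM in OGD_PARP14 and 16.4 and 13.6 FPKM in PARP14 and fell by 1.21 (SE 0.12, limma adjusted p = 0.0363). Ythdf2, which binds methylated adenosine in mRNA and promotes its decay, had 10.6 and 10.5 FPKM in OGD_PARP14 and 22.4 and 20.2 FPKM in PARP14 and fell by 0.95 (SE 0.10, limma adjusted p = 0.0452). Trim30c, of a family of antiviral and inflammatory regulators, had 4.30 and 5.65 FPKM in OGD_PARP14 and 15.6 and 13.3 FPKM in PARP14 and fell by 1.38 (SE 0.15, limma adjusted p = 0.0452). In each of these genes the 2 OGD_PARP14 libraries were closer to each other than to either PARP14 library. Called genes were named only where the groups were separate, so this is no further result. Tmem131 (10.3 and 8.71 FPKM against 23.2 and 21.6 FPKM), Snn (6.40 and 6.34 against 12.7 and 14.1 FPKM) and Dusp16, a phosphatase of stress kinases (1.74 and 1.93 against 4.70 and 4.67 FPKM), also fell. Their limma adjusted p-values were 0.0445, 0.0452 and 0.0445. Dusp16 lay under the level set for named genes and was named after its values were seen. The called row with the most negative difference was BE692007, an expressed sequence whose model overlaps Ms4a6c and Ms4a6b, with 3.49 and 2.13 FPKM in OGD_PARP14 and 18.8 and 19.1 FPKM in PARP14 (log2 difference -2.41, SE 0.18, limma adjusted p = 0.0237).

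Other genes named for a wide gap between the groups were lower in both libraries without passing the test. Of the 13 chemokine ligands tested, 3 were higher and 2 lower in both libraries (median 0.44), beside 14.2% and 27% of all rows. Ccl7, a monocyte chemokine, had 3.41 and 3.76 FPKM in OGD_PARP14 against 13.8 and 15.7 FPKM in PARP14 (limma adjusted p = 0.0948). Trib1, a pseudokinase that steers protein degradation, had 5.28 and 6.12 FPKM against 18.9 and 19.6 FPKM (limma adjusted p = 0.0707). Both genes were as low in library 2 as in library 1. Il10, the anti-inflammatory cytokine, had 7.16 and 1.56 FPKM in OGD_PARP14 against 23.9 and 24.4 FPKM in PARP14, and Ch25h, the enzyme that makes 25-hydroxycholesterol, had 6.68 and 2.22 FPKM against 26.2 and 19.7 FPKM. Tagap, a GTPase-activating gene, had 25.3 and 4.68 FPKM against 93.8 and 82.5 FPKM. In Il10, Ch25h and Tagap library 2 was the lower of the pair.

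Interferon-induced genes were lower in both OGD_PARP14 libraries as a group, with a size that differed by library. Of 27 interferon-stimulated genes tested, 24 had both OGD_PARP14 libraries below both PARP14 libraries, beside 27% of all rows, and 0 had both above. Their median difference was -0.78, with -0.94 in library 1 and -0.44 in library 2, against -0.07, -0.02 and -0.12 over all rows. None passed the test with all libraries, beside 0.0935% of all rows called lower. Usp18, a protease that removes Isg15 and restrains interferon signalling, had 30.9 and 19.5 FPKM in OGD_PARP14 and 89.1 and 73.9 FPKM in PARP14 (-1.69, SE 0.29, limma adjusted p = 0.0989). Isg15, the ubiquitin-like modifier, had 119 and 172 FPKM in OGD_PARP14 and 314 and 272 FPKM in PARP14 (limma adjusted p = 0.138). Ddx58, the RNA sensor RIG-I, had 21.8 and 27.2 FPKM against 48.7 and 47.8 FPKM, and Dtx3l, a ubiquitin ligase that partners Parp9, had 20.1 and 22.9 FPKM against 42.4 and 36.8 FPKM, both with a limma adjusted p of 0.0948. The groups did not overlap for these 4 genes, which are among the 24 counted above.

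Within the list, genes split by how far library 2 followed library 1. Stat2, which carries the interferon signal to the nucleus, had 17.5 and 39.6 FPKM in OGD_PARP14 and 66.6 and 63.2 FPKM in PARP14. Ifit3, an antiviral effector, had 70.8 and 171 FPKM in OGD_PARP14 and 263 and 206 FPKM in PARP14 (-1.07, limma adjusted p = 0.322). Its model also holds Ifit3b. Library 2 was thus nearer to PARP14 than library 1 was for Stat2 and Ifit3. Irf7, the regulator of interferon production, had 82.2 and 83.0 FPKM in OGD_PARP14 and 90.7 and 87.1 FPKM in PARP14, a narrow gap. Oasl2, an oligoadenylate synthetase-like gene, was the 1 member with library 2 above the PARP14 mean, at 12.6 and 34.8 FPKM in OGD_PARP14 and 30.2 and 20.5 FPKM in PARP14.

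**Figure D2:**
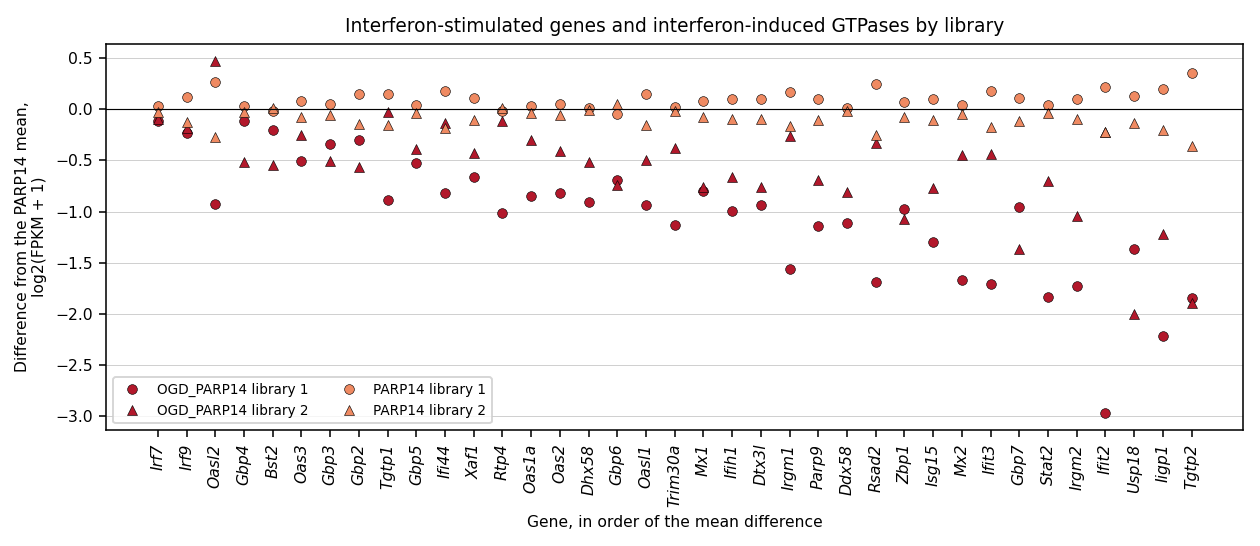
Log2(FPKM + 1) difference from the PARP14 mean for interferon-stimulated genes and interferon-induced GTPases, 1 tested gene left out, in OGD_PARP14 libraries 1 and 2 and in PARP14 libraries 1 and 2. Nearly all points of OGD_PARP14 lie below 0, with a median of -0.94 in library 1 and -0.44 in library 2 over all 27 tested interferon-stimulated genes, and Oasl2 is the exception in library 2.

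Interferon-induced GTPases, which attack the vacuoles of intracellular pathogens, were likewise lower in counts and medians. Both OGD_PARP14 libraries were lower in 10 of 11 tested models, beside 27% of all rows, with medians of -0.88 in library 1 and -0.56 in library 2. Iigp1 had 2.33 and 5.63 FPKM in OGD_PARP14 and 16.7 and 12.4 FPKM in PARP14, and Tgtp2 had 2.18 and 2.06 FPKM against 13.6 and 7.89 FPKM. Gbp7, which shares its model with a predicted gene, had 6.49 and 4.62 FPKM against 14.6 and 12.4 FPKM (limma adjusted p = 0.0948). None of the 11 passed the test with all libraries, beside 0.0935% of all rows called lower. Some members of Parp14's own family lay lower in both libraries: Parp9 had 20.9 and 28.9 FPKM in OGD_PARP14 against 50.7 and 43.9 FPKM in PARP14, Parp12 had 41.4 and 61.1 FPKM against 84.2 and 76.0 FPKM, and Parp11 had 5.51 and 5.87 FPKM against 10.1 and 9.84 FPKM (limma adjusted p = 0.0703 for Parp11). Over the 15 tested genes of the family, 6 were lower and 2 higher in both libraries, beside 27% and 14.2% of all rows, and the Parp14 model itself was among those higher.

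The Ifit3 promoter is shown for the element of this group, the interferon-stimulated response element, searched on both strands as GAAA, any 2 bases, then GAAA. It lies at chr19:34583279-34583578, plus strand (RefSeq, GRCm38.p6), and both matches, in capitals, are on the opposite strand.
Ifit3: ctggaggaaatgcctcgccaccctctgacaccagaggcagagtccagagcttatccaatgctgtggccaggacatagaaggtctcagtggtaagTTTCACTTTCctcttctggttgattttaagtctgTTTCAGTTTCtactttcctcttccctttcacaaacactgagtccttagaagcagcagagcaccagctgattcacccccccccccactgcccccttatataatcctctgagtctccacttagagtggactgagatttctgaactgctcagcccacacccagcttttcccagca
The element occurs in 11 of 19 interferon-stimulated genes with a promoter found (57.9%) and 9 of 9 such GTPase genes, and in 3.44% of all promoters. It occurs in 1 of 25 such genes of the hypoxia list.

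Genes of the oxygen response differed from PARP14 mainly in library 1. Of 25 hypoxia and HIF-1 targets tested, library 1 was at least 1 log2 unit above the PARP14 mean in 13 and below it in 0, beside 2.59% and 1.81% of all rows. Library 2 was above it in 4 and below it in 3. The median difference was 1.08 in library 1 and 0.04 in library 2. Egln3, an oxygen-sensing prolyl hydroxylase that hypoxia itself induces, had 33.8 and 1.08 FPKM in OGD_PARP14 and 0.765 and 0.708 FPKM in PARP14. Bnip3, a mitophagy receptor, had 80.6 and 6.15 FPKM against 9.13 and 8.88 FPKM, and Slc2a1, the glucose transporter GLUT1, had 88.2 and 11.9 FPKM against 14.3 and 13.1 FPKM. In these genes library 1 stood far above PARP14, while library 2 was at or near its level, on either side of it.

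**Figure D3:**
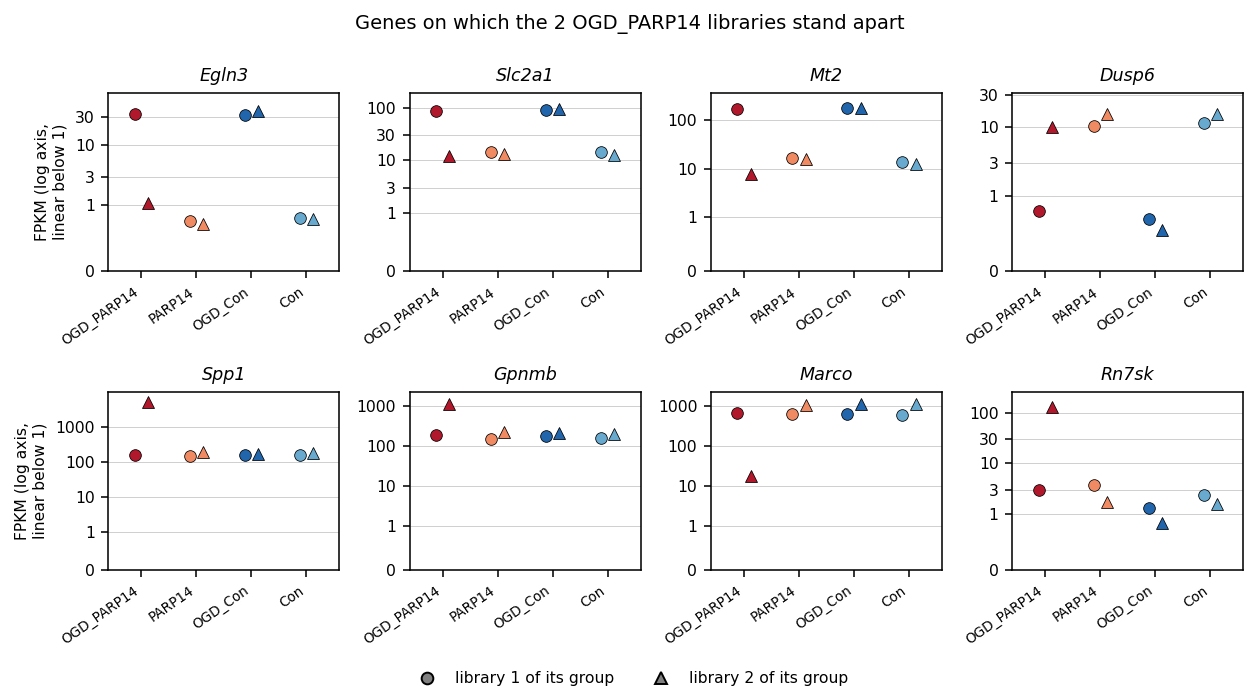
FPKM (log axis, linear below 1) in each library of OGD_PARP14, PARP14, OGD_Con and Con for 8 genes in which the OGD_PARP14 libraries differ. Circles are library 1 and triangles library 2. Egln3, Slc2a1, Mt2 and Dusp6 differ from PARP14 mainly in library 1, and Spp1, Gpnmb, Marco and Rn7sk mainly in library 2. Mt2 lies above PARP14 in library 1 and below it in library 2.

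Library 2 departed from that pattern in both directions within the list. Hilpda, a lipid-droplet protein, had 43.8 and 11.7 FPKM in OGD_PARP14 against 3.94 and 5.86 FPKM in PARP14, so that both libraries were higher. Ndrg1 had 117 and 1.96 FPKM in OGD_PARP14 and 110.5 and 77.6 FPKM in PARP14, Ddit4, an inhibitor of mTORC1, had 71.1 and 0.701 FPKM against 35.7 and 40.4 FPKM, and Adm, the peptide adrenomedullin, had 41.9 and 0.271 FPKM against 53.9 and 44.2 FPKM. For these 3 genes library 2 lay far below all other libraries. Plin2, which coats lipid droplets, went the other way, with 102 and 825 FPKM in OGD_PARP14 and 111 and 174 FPKM in PARP14.

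Bhlhe41, a transcriptional repressor of the clock and a hypoxia target, was higher in both libraries, at 19.9 and 7.68 FPKM in OGD_PARP14 against 1.94 and 1.78 FPKM in PARP14 (2.23, limma adjusted p = 0.105). Its promoter and that of Egln3 are shown because both hold the core of the hypoxia response element, ACGTG on either strand, while the genes differ in library 2. The windows are chr6:145865371-145865670 for Bhlhe41 and chr12:54203825-54204124 for Egln3, both minus strand (RefSeq, GRCm38.p6). Capitals mark the matches, which in Bhlhe41 overlap on both strands as CACGTG, also known as an E-box.
Bhlhe41: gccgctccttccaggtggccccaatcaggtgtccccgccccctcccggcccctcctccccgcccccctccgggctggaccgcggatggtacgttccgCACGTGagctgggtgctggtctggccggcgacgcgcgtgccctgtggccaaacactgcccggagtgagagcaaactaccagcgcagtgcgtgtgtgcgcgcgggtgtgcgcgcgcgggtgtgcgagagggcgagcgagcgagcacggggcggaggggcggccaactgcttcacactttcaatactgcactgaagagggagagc
Egln3: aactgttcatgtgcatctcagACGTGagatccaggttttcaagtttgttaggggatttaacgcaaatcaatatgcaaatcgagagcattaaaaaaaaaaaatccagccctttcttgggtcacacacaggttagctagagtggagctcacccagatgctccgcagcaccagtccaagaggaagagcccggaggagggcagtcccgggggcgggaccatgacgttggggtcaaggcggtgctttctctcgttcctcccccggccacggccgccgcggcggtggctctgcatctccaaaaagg
Counted by gene with a promoter found, tested or not, ACGTG occurs in 20 of 25 of the hypoxia list (80.0%) and 12 of 19 for glycolysis (63.2%). It occurs in 1 of 19 for the interferon-stimulated genes (5.26%). Counted by promoter, it occurs in 19.6% of all promoters.

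Glycolytic genes were higher in both libraries for 7 of 18 members and lower in both for 0, beside 14.2% and 27% of all rows. The median was 0.95 in library 1 and 0.09 in library 2. Pkm, pyruvate kinase, which shares its model with a predicted gene, had 211 and 227 FPKM in OGD_PARP14 against 134 and 145 FPKM in PARP14 (0.64, limma adjusted p = 0.0948). Ldha, lactate dehydrogenase, had 206 and 101 FPKM against 74.8 and 83.7 FPKM, so both libraries were higher by unequal amounts. Hk2, hexokinase 2, had 108 and 11.3 FPKM in OGD_PARP14 against 22.0 and 22.9 FPKM in PARP14, and Pfkfb3, which makes the activator of phosphofructokinase, had 62.9 and 3.85 FPKM against 20.5 and 14.2 FPKM. For these enzymes library 1 was above PARP14 and library 2 below it. Slc16a3, the lactate exporter, was higher in both, with 22.0 and 3.98 FPKM against 1.36 and 1.76 FPKM.

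The integrated stress response showed the same division. Library 1 was at least 1 log2 unit above the PARP14 mean in 12 of 17 members and library 2 in 1, beside 2.59% and 4.43% of all rows. The medians were 1.30 in library 1 and -0.41 in library 2. Atf3, a stress-induced transcription factor, had 439.7 and 139 FPKM in OGD_PARP14 against 114 and 102 FPKM in PARP14. Ddit3, the factor CHOP, had 83.4 and 23.8 FPKM against 20.5 and 20.0 FPKM. Both factors had both libraries higher, but library 2 by little. Trib3, a target of CHOP, had 17.6 and 1.69 FPKM against 2.52 and 2.62 FPKM, with library 2 below PARP14. By contrast, the 19 tested chaperones and unfolded-protein genes had medians of -0.04 in library 1 and -0.08 in library 2.

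Outside these lists, library 1 differed from PARP14 in the metallothioneins Mt1 and Mt2, a clock repressor and a phosphatase of the ERK pathway. It was at least 1 log2 unit above the PARP14 mean in 3 of 10 tested metallothionein and zinc genes (median -0.05). For clock genes this was 6 of 11 (median 1.30). It was as far below in 1 of 6 ERK feedback genes (median -0.30). The shares over all rows were 2.59% above and 1.81% below. Mt2, a metal-binding metallothionein, had 174 and 7.79 FPKM in OGD_PARP14 and 16.4 and 15.8 FPKM in PARP14, and Mt1 had 104 and 19.8 FPKM against 22.0 and 17.5 FPKM. Nr1d1, the clock repressor REV-ERB alpha, had 22.4 and 0.53 FPKM against 1.68 and 1.09 FPKM. Dusp6, which switches off ERK, was the reverse, at 0.799 and 10.3 FPKM in OGD_PARP14 and 10.4 and 15.5 FPKM in PARP14. Id1, an inhibitor of helix-loop-helix factors, had 2.63 and 13.6 FPKM against 9.17 and 17.8 FPKM. For Dusp6 and Id1 library 2 lay close to or within the PARP14 values. Of the 8 genes named as lowest in library 1 alone, Lcor, Eef1a1, Ifit2 and Filip1l rest on short or overlapping gene models, some with exact zeros, and are not read further.

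Library 2 had a separate set of high genes, those of the state called disease-associated microglia. Of 16 tested members of that list, library 2 was at least 1 log2 unit above the PARP14 mean in 15 and library 1 in 0, beside 4.43% and 2.59% of all rows. The medians were 0.09 in library 1 and 2.01 in library 2. None passed the test with all libraries, beside 0.14% of all rows called higher. Spp1, the secreted phosphoprotein osteopontin, had 155 and 5231 FPKM in OGD_PARP14 and 149 and 196 FPKM in PARP14. Its model also holds a predicted gene. Gpnmb, a glycoprotein of lysosome-rich macrophages, had 195 and 1156 FPKM against 152 and 223 FPKM, and Apoe, the lipid carrier, had 1998 and 6114 FPKM against 2426 and 2294 FPKM. Library 1 was within or near the PARP14 values for all 3. Trem2, a lipid-sensing receptor, had 15.7 and 87.9 FPKM against 11.1 and 17.1 FPKM, and the lectin receptor Clec7a had 43.2 and 269 FPKM against 26.2 and 41.0 FPKM. The Trem2 model also holds Treml1.

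Lysosomal and proliferation genes lay higher with them in library 2. Of 25 lysosomal genes, 15 had both libraries above both PARP14 libraries, beside 14.2% of all rows, with medians of 0.07 in library 1 and 0.66 in library 2. Ctsd, an aspartic protease, had 789 and 2953 FPKM in OGD_PARP14 and 699 and 856 FPKM in PARP14. Its model also holds Ifitm10 and a predicted gene. Gla, alpha-galactosidase, had 41.9 and 70.1 FPKM against 16.9 and 21.5 FPKM (limma adjusted p = 0.107), and Atp6v1a, a subunit of the proton pump, had 93.2 and 111 FPKM against 55.9 and 59.1 FPKM (limma adjusted p = 0.0948). Gla and Atp6v1a were thus higher in both libraries and Ctsd almost wholly in library 2. Of 14 cell-cycle genes, library 2 was at least 1 log2 unit above the PARP14 mean in 13 and library 1 in 0. The shares over all rows were 4.43% for library 2 and 2.59% for library 1. Mki67, the proliferation antigen Ki-67, had 0.559 and 8.31 FPKM in OGD_PARP14 against 0.334 and 1.01 FPKM in PARP14.

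Beside these genes other features of library 2 moved, and their part in the result was not tested. Rn7sk, the 7SK RNA, which carries no poly(A) tail, had 2.90 and 128 FPKM in OGD_PARP14 and 3.73 and 1.71 FPKM in PARP14. Both tested models of 7SL RNA, Rn7s1 and Rn7s2, had 4.19 and 4.58 FPKM in library 1 and 156 and 148 FPKM in library 2, against 3.57 to 4.48 FPKM in PARP14. Both models also hold predicted genes. Short gene models inside Cdk8, Gphn and Filip1l were high there too, at 971, 895 and 3519 FPKM in library 2. The border-macrophage marker Folr2 had 12.5 and 221 FPKM in OGD_PARP14 against 15.0 and 19.5 FPKM in PARP14, while 5 other tested markers of that list did not exceed the PARP14 mean by 1 log2 unit.

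Receptor and marker lists of microglia moved both ways in library 2. Library 2 was above the PARP14 mean in 8 of 11 scavenger receptors and 11 of 14 homeostatic microglia genes, beside 4052 of all 10690 rows. By at least 1 log2 unit it was above in 5 and below in 2 of the scavenger receptors (median 0.65). For the homeostatic genes this was 4 and 2 (median 0.28), beside 4.43% and 6.83% of all rows. Marco and Fcrls went against most members of these lists, and they and Siglece, which is in neither list, were far lower in library 2 than in all other libraries. Marco, a scavenger receptor for bacteria, had 667 and 17.4 FPKM in OGD_PARP14 and 639 and 1060 FPKM in PARP14. Fcrls, a marker of resting microglia, had 1614 and 74.0 FPKM against 2046 and 1619 FPKM, and Siglece, an inhibitory sialic acid receptor, had 92.3 and 1.31 FPKM against 127 and 129 FPKM. Library 1 lay within the PARP14 values for Marco, just below them for Fcrls and further below them for Siglece. Ighm, the immunoglobulin mu constant region, had 62.0 and 0.068 FPKM against 69.2 and 62.7 FPKM, and Cd55, which restrains complement, had 49.1 and 0.41 FPKM against 65.8 and 70.3 FPKM. Tmem119, a microglial surface marker, was lower in both libraries, at 5.49 and 1.88 FPKM against 12.1 and 12.5 FPKM (limma adjusted p = 0.141). Csf1r, the receptor that microglia need to survive, had 172 and 317 FPKM against 196 and 218 FPKM.

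Ribosomal protein genes were lower than PARP14 in library 2 and slightly higher in library 1. All 26 tested had a negative difference in library 2 (median -0.89) and 25 a positive one in library 1 (median 0.16). Over all 10690 rows, 4052 were positive in library 2 (median -0.12) and 5056 in library 1 (median -0.02). Rpl4, of the large subunit, had 805 and 371 FPKM in OGD_PARP14 and 719 and 672 FPKM in PARP14, and Rps6, of the small subunit, had 775 and 336 FPKM against 742 and 691 FPKM. The Rpl4 model also holds Snord16a and a predicted gene. Nuclear genes of oxidative phosphorylation were lower in both libraries for 18 of 25 members, beside 27% of all rows, with medians of -0.09 in library 1 and -0.34 in library 2. None was called, beside 0.0935% of all rows called lower. FPKM values are scaled to the fragments of each library, and library 2 had more of its summed FPKM in its top 10 models. Levels there therefore depend on the scaling. Median centring of the libraries left 16 rows called higher and 5 lower, and quantile normalization left 15 higher and 4 lower, beside 15 and 10 without it. The share called higher was thus 76.2% and 78.9%, beside 60.0%.

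**Figure D4:**
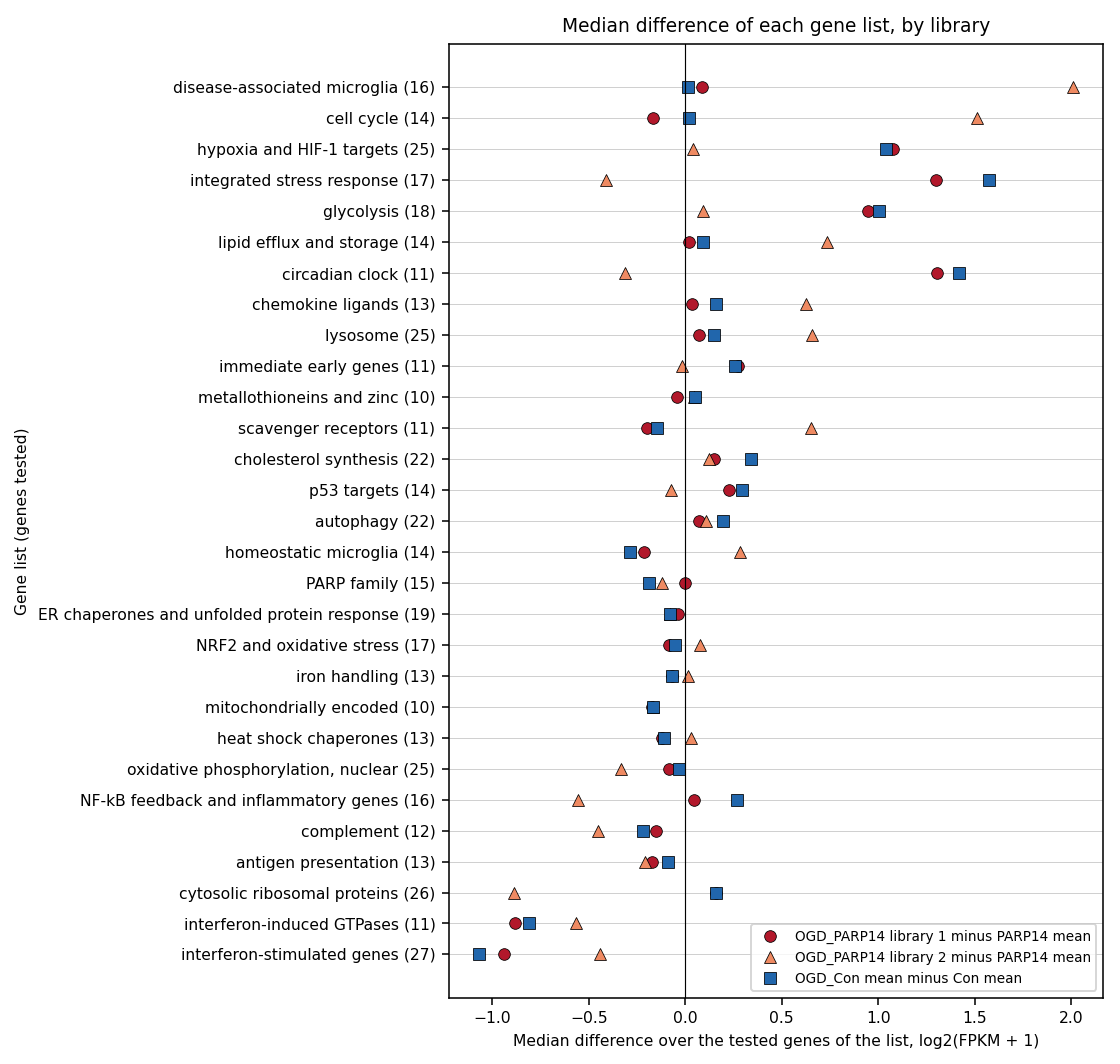
Median log2(FPKM + 1) difference for each gene list with at least 10 tested genes, for OGD_PARP14 library 1 and library 2, each minus the PARP14 mean, and for the OGD_Con mean minus the Con mean. Library 1 and the control-plasmid libraries lie together for most lists (1.08 and 1.04 for hypoxia), and library 2 lies apart for disease-associated microglia (2.01), cell cycle (1.51) and ribosomal proteins (-0.89).

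Smaller lists gave mixed counts. Of 7 chemokine and formyl-peptide receptors tested, Cxcr4 was the 1 called. Fpr1, a receptor for bacterial formyl peptides, had 224 and 24.5 FPKM in OGD_PARP14 against 486 and 502 FPKM in PARP14, lower in both libraries. Of 14 p53 targets, 5 were higher and 5 lower in both libraries, beside 14.2% and 27% of all rows, and Plk2 was the 1 called, while Btg2, an anti-proliferative gene, had 18.8 and 17.2 FPKM in OGD_PARP14 against 42.9 and 36.5 FPKM in PARP14. Cholesterol synthesis (22 genes, median 0.15), autophagy (22 genes, median 0.11), mitochondrially encoded genes (10 models, median -0.15) and NRF2 targets (17 genes, median -0.07) had 0 called genes. Of all rows 0.14% were called higher and 0.0935% lower, so these counts of 0 and 1 are not read as results about the lists.

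The control-plasmid libraries gave a comparison that shares no library with OGD_PARP14 and PARP14, although limma used 1 estimate of spread for both. Both OGD_Con libraries lay above both Con libraries in 30% of all rows and below both in 36.7%. Of the 15 rows called higher in OGD_PARP14, 14 were above Con in both OGD_Con libraries and 1, the Sirt7 model, was below, and all 10 rows called lower were below. Of the 32 rows at least 1 log2 unit higher in both OGD_PARP14 libraries, 30 were above in OGD_Con and 0 below, with a median of 1.53. Of the 37 lower ones 32 were below and 0 above, with a median of -1.49. Cxcr4 had 75.2 and 75.7 FPKM in OGD_Con against 7.65 and 4.24 FPKM in Con, and Tnf had 11.4 and 9.13 FPKM against 58.6 and 63.7 FPKM. Both levels are close to those in OGD_PARP14 and PARP14.

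The list medians in OGD_Con minus Con were 1.04 for hypoxia, 1.00 for glycolysis, 1.57 for the integrated stress response, -1.07 for interferon-stimulated genes and 0.01 for disease-associated microglia, nearer to OGD_PARP14 library 1 than to library 2 in each. Egln3 had 32.5 and 37.7 FPKM in OGD_Con and 0.801 and 0.797 FPKM in Con, Mt2 had 179.8 and 183 FPKM against 13.7 and 12.6 FPKM, and Spp1 had 161 and 171 FPKM against 162 and 181 FPKM. Library 1 of OGD_PARP14 was at the OGD_Con level in all 3 genes, and library 2 in none. The difference between the OGD effects under the 2 plasmids, tested as an interaction, passed in 1 row (0.00935%), with 202 rows at an unadjusted p under 0.05. That row, Gm6793, is a predicted gene that overlaps Terf2ip and was named after its values were seen. Without OGD_PARP14 library 2, 9 rows passed, and those rest on gene models with overlaps or exact zeros. For BE692007, with 12.9 ± 0.10 FPKM in OGD_Con and 19.2 ± 1.98 FPKM in Con (SD, n = 2 each), the interaction was -1.88 (limma adjusted p = 0.566). A p that misses the threshold does not show that the plasmids gave the same OGD effect.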

How the data were processed

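Poly(A) RNA of 8 libraries was sequenced, and the deposited table gives FPKM per gene model and library. HISAT, StringTie, edgeR and the build mm9 are named in the submitters' processing notes, with no versions. Of 39015 models with Ensembl identifiers, 37538 (96.2%) have GENCODE M21 positions on GRCm38, and coordinates are given as deposited. StringTie models may join or split genes, and 706 of the 10690 rows tested have joined names. Values were taken as log2(FPKM + 1) and fitted with limma 3.58.1 (R 4.3.3, trend and robust off, 4 group means, 4 residual degrees of freedom). A model 1 kb long at 1 FPKM rests on about 13.4 to 17.0 fragments, so lower values carry more counting error. Depth was estimated, so no intervals are given. Named genes were first those with the largest changes among called rows. For these the higher group had at least 5 FPKM and both its libraries exceeded both of the other group. Named as well were the widest gaps between the nearest libraries and the largest differences in a single OGD_PARP14 library. List members were named by p or by library difference, and predicted genes were left out. The members and gene lists were chosen with earlier results of these data known. Fits were tested on simulated data in which all libraries varied alike, so that check does not cover a library as far apart as OGD_PARP14 library 2. Figures and counts used Python 3.11.15, pandas 2.3.3 and matplotlib 3.10.9. Values of some list members are not reported here, though list counts and medians include them.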

Additional observations from a re-analysis of the deposited data

Results flagged for a closer look

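The OGD effect on Gm6793, a predicted gene on chromosome 8 from 112013433 to 112015055 that overlaps Terf2ip, passed the test of a difference between the plasmids with all 8 libraries. The gene had 75.0 and 60.5 FPKM in OGD_PARP14 and 6.01 and 5.37 FPKM in PARP14, and 72.2 and 69.0 FPKM in OGD_Con and 57.0 and 57.7 FPKM in Con. The interaction was 3.06 log2 units (SE 0.19, limma adjusted p = 0.0400), and the PARP14 libraries were the low ones. No interaction passed with a pseudocount of 0.1, with no filter on low values, or without any 1 of the libraries of PARP14, OGD_Con or Con.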

How the results depend on the processing

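The counts of rows called higher (15) and lower (10) depended on the settings. Lower calls came to 4 with a pseudocount of 0.1 FPKM, 18 with no filter, 5 with median centring and 4 with quantile normalization, while higher calls stayed within 1.5 times the main count under these 4. Fitting the 4 compared libraries alone gave 0 and 0. Leaving out 1 library gave 0 to 1190 higher and 0 to 2296 lower. Rows at least 1 log2 unit apart (32 higher, 37 lower) came to 75 and 61 with a pseudocount of 0.1, 12 and 13 with a pseudocount of 5, 6 and 1 at a margin of 2, and 1521 and 2887 at any margin. Leaving out 1 library gave 68 to 400 higher and 65 to 590 lower. The interaction (1 row) gave 0 with a pseudocount of 0.1 and 0 with no filter, and 0 to 3240 when 1 library was left out. The causes were not tested.

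With a replicate block, 2 rows were higher and 0 lower, and the interaction passed in 0 rows (196 at an unadjusted p under 0.05). Same-numbered libraries of OGD_PARP14 and PARP14 deviated from their group means with a correlation of 0.0844. The other group pairs ranged from 0.0091 to 0.1195, the highest being PARP14 with Con. With 2 pairs the numbers were not taken as pairing, although Chil3 and Marco, given below, divided by library number in the groups other than OGD_PARP14. Of 19 named called genes, 13 remained called with a pseudocount of 0.1, 16 with a pseudocount of 5, 14 with no filter, 16 with median centring, 13 with quantile normalization and 0 with the block. No result changed sign while past the threshold.

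Depth was estimated, and FPKM near 1 rests on few fragments for short models.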

Other observations

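Chil3, a chitinase-like protein of alternatively activated macrophages, had 17.5 and 0.327 FPKM in OGD_PARP14, 16.7 and 137 FPKM in PARP14, 16.4 and 118 FPKM in OGD_Con, and 16.2 and 129 FPKM in Con. All 4 libraries numbered 1 were thus near 17 FPKM, and library 2 was high in the 3 groups other than OGD_PARP14. Marco divided by library number in the same way, with 667 and 17.4 FPKM in OGD_PARP14, 639 and 1060 FPKM in PARP14, 654 and 1143 FPKM in OGD_Con, and 609.8 and 1106 FPKM in Con.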
